A study of Mus musculus with 28 samples.

Results

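Hox genes encode homeodomain transcription factors that stand in 4 clusters, Hoxa to Hoxd, and are numbered by paralogue group along each cluster. Genes at the low-numbered end are switched on earlier and further forward in the embryo than genes at the high-numbered end, so the set of Hox genes a tissue expresses records its level along the body axis. Hox proteins bind DNA together with TALE homeodomain cofactors of the Pbx, Meis and Pknox families. Polycomb complexes keep the clusters silent, Trithorax complexes keep them active, and retinoic acid and Cdx factors set their starting domains. In the embryonic kidney the group 11 genes are known to be needed in the metanephric mesenchyme for branching of the ureteric bud, and the group 10 genes act in the stroma.

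The data described here are all Hox probe sets outside group 11 on a pair of mouse expression arrays, the designs 430A and 430B. A probe set was a member if its annotation gave exactly 1 symbol made of Hoxa, Hoxb, Hoxc or Hoxd and a number, with Hoxa11, Hoxc11 and Hoxd11 left out. The rule found 46 probe sets of 31 genes among 45037 probe sets on both designs, 35 of them on 430A and 11 on 430B. Cluster a contributed 15 probe sets of 8 genes, cluster b 11 of 9 genes, cluster c 11 of 7 genes and cluster d 9 of 7 genes. The rule used no measured value.

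RNA came from whole mouse kidneys in 7 groups of 2 samples, each sample on both designs. The first 3 groups were embryos null for Hoxa11 and Hoxd11 together, taken on embryonic days E12.5, E13.5 and E16.5, where a sample was both kidneys of 1 embryo of unstated strain. Each was set against a group of the same stage made of pooled kidneys of wild type CD-1 embryos. The last group was adult kidney, whose RNA was prepared with RNAzol from 100 ng input, while embryonic RNA came from a column kit with 30 ng, and all RNA was amplified by 2 rounds of in vitro transcription. Nothing in the labels says that paired replicate numbers share a litter or a day.

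Values are linear MAS5 signals, brought by the authors to a trimmed mean of 1500.3 to 1500.7 on every array. With 2 samples per group, the number of arrays limits the precision, and p-values measure the spread between these samples. Differences are log2 differences ± SE from limma, fitted over all probe sets of a design after signals under a floor (86.1 on 430A, 148.1 on 430B) were set to it. A probe set is called, and said to be higher or lower, where its p adjusted over all 30564 tested probe sets was under 0.05. Signals of different probe sets are not compared, because each probe set has its own response.

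The genotype check gave the labelled result for 1 of the 2 targeted genes. Hoxa11 (probe set 1420414_at) had 398 and 500.1 in null kidneys, against 3431 and 2321 in wild type kidneys at E12.5. On E13.5 it had 352 and 422 in null kidneys, against 2353 and 2117 in wild type kidneys, and at E16.5 211 and 216 in null kidneys, against 2009 and 1940.0 in wild type kidneys. Its log2 differences were -2.66 ± 0.29, -2.53 ± 0.29 and -3.21 ± 0.29, all called. Hoxd11 (1450584_at) was too low to be tested, with 300.3 and 529.6 in null kidneys, against 395 and 418 in wild type kidneys at E12.5. Where that probe set lies in the gene is not known here, so it checks nothing.

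Technical measures moved with genotype. The 3′ to 5′ actin ratio on 430A, which rises as RNA or its amplification shortens, was 1.264 to 2.273 in null samples and 2.88 to 4.125 in wild type embryonic samples. Null E16.5 arrays were read on another scanner than all other arrays, and no day of scanning held both null and wild type samples of a stage, so at each stage the effects of that day and of genotype cannot be told apart. The median signal also differed between arrays that share a trimmed mean. Centring each array on its median would shift every log2 difference of null over wild type on 430A by -0.47 at E12.5, -0.33 at E13.5 and 0.01 at E16.5, and on 430B by 0.12, 0.27 and 0.66. Calls at single stages that end under this centring are given with each gene below.

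Of the 46 members, 33 probe sets of 22 genes were bright enough in at least 1 group to be tested, and 31 stood above the floor on all 14 arrays of their design. The 13 others were the only probe sets of Hoxa2, Hoxa7, Hoxa13, Hoxb7, Hoxb13, Hoxc13, Hoxd1 and Hoxd12, both probe sets of Hoxa4, and 1 probe set each of Hoxc5, Hoxc6 and Hoxd13. Hoxb13, Hoxc13 and a second Hoxd13 probe set (1422239_at) were at the floor on all 14 arrays. Hoxa13 was above the floor throughout, at 202 and 372 in null kidneys, against 176 and 153 in wild type kidneys at E12.5, and stayed below the level set for testing.

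Promoters were sought for genes with a probe set higher in null kidneys at E12.5 and E13.5 and not called at E16.5. These were Hoxa3, Hoxa5, Hoxc4, Hoxc6 and Hoxc9. Hoxc10, and Hoxd8, which had the largest change between stages in both genotypes, were added. Windows of Hoxc6, Hoxc9 and Hoxc10 were not available, so the promoters of the other 4 genes are shown. Each is the RefSeq window of 250 bases before to 50 bases after the start (build GRCm38.p6), written 5′ to 3′ on the strand of the gene. Capitals mark a match to AGGTCA, the half-site of retinoic acid receptors, which on the other strand reads TGACCT.
Hoxa3 (chr6:52213018-52213317, minus strand): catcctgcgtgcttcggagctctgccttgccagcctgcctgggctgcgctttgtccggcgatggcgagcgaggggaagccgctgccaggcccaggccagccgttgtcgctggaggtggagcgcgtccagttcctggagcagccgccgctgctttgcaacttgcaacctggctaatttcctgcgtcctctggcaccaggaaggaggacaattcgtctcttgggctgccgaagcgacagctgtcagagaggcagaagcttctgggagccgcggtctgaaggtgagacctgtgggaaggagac
Hoxa5 (chr6:52204538-52204837, minus strand): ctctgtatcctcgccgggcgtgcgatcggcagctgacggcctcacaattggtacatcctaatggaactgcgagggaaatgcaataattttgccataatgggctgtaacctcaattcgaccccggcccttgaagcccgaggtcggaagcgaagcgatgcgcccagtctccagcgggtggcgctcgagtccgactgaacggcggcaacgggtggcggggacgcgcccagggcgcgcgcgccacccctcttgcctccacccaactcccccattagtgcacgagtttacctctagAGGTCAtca
Hoxc4 (chr15:103034145-103034444, plus strand): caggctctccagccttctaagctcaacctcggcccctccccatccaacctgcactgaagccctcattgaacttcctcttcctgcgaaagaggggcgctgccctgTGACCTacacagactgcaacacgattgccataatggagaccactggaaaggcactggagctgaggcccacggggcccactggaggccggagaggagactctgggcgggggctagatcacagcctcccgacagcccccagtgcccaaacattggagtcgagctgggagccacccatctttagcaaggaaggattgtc
Hoxd8 (chr2:74704365-74704664, plus strand): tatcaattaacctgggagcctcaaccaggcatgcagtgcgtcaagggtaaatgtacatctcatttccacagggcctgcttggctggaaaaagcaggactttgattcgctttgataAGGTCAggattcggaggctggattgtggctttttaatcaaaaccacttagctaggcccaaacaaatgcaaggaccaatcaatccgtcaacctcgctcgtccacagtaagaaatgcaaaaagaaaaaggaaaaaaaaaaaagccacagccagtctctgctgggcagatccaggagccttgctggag
The motifs searched, on both strands, were AGGTCA, the Pbx and Hox composite site TGATNNAT and the homeodomain palindrome TAATTA. The half-site matched 1 position each in the Hoxa5, Hoxc4 and Hoxd8 windows, and none of these motifs matched in the Hoxa3 window, so matches of different motifs do not overlap in these windows. RefSeq windows were found for 18 promoters of 17 member genes, of which 6 held the half-site, against 16.3% of all 32851 windows. TGATNNAT was in 2 of the 18 (8.85% of all) and TAATTA in 0 of the 18 (5.29% of all). A match is only a run of letters and says nothing of binding in these kidneys.

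The comparison of null with wild type kidneys asks which other Hox genes differ between these groups. Null samples were single embryos of unstated strain and wild type samples were pools of CD-1 embryos. Any effect of strain or pooling therefore cannot be told apart from that of genotype at any stage. At E12.5 and E13.5 most of the Hox probe sets that differed were higher in null kidneys, and most of these belonged to clusters a and c. At E16.5 the early rises of Hoxa3, Hoxa5 and Hoxc4 were no longer called, and most called probe sets were lower, among them Hoxa10, Hoxd9, Hoxd10 and Hoxd13. Hoxc10 was higher in null kidneys at all 3 stages.

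At E12.5, 11 of 33 tested member probe sets were called (33.3%), 10 higher and 1 lower, against 18.6% of all tested probe sets (12.4% higher and 6.19% lower). At E13.5 the count was again 11 of 33 (33.3%), 10 higher and 1 lower, against 23.4% (14.4% higher and 8.97% lower). At E16.5 it was 10 of 33 (30.3%), 2 higher and 8 lower, against 35.1% (15.9% higher and 19.2% lower), so the share at that stage was near the background. The stage average called 15 of 33 (45.5%), 11 higher and 4 lower, against 46.9% (23.4% higher and 23.5% lower). The average of the early stages alone, added after seeing the data, called 16 of 33, 15 higher and 1 lower, against 38.5% (21.8% higher and 16.7% lower). Over all 46 members, with no filter, the median log2 difference was 0.10, 0.46 and -0.22 at the 3 stages, beside 0.00, 0.00 and -0.07 over all probe sets. In whole kidneys, fewer cells of a type and less RNA per cell cannot be told apart.

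**Figure D1:**
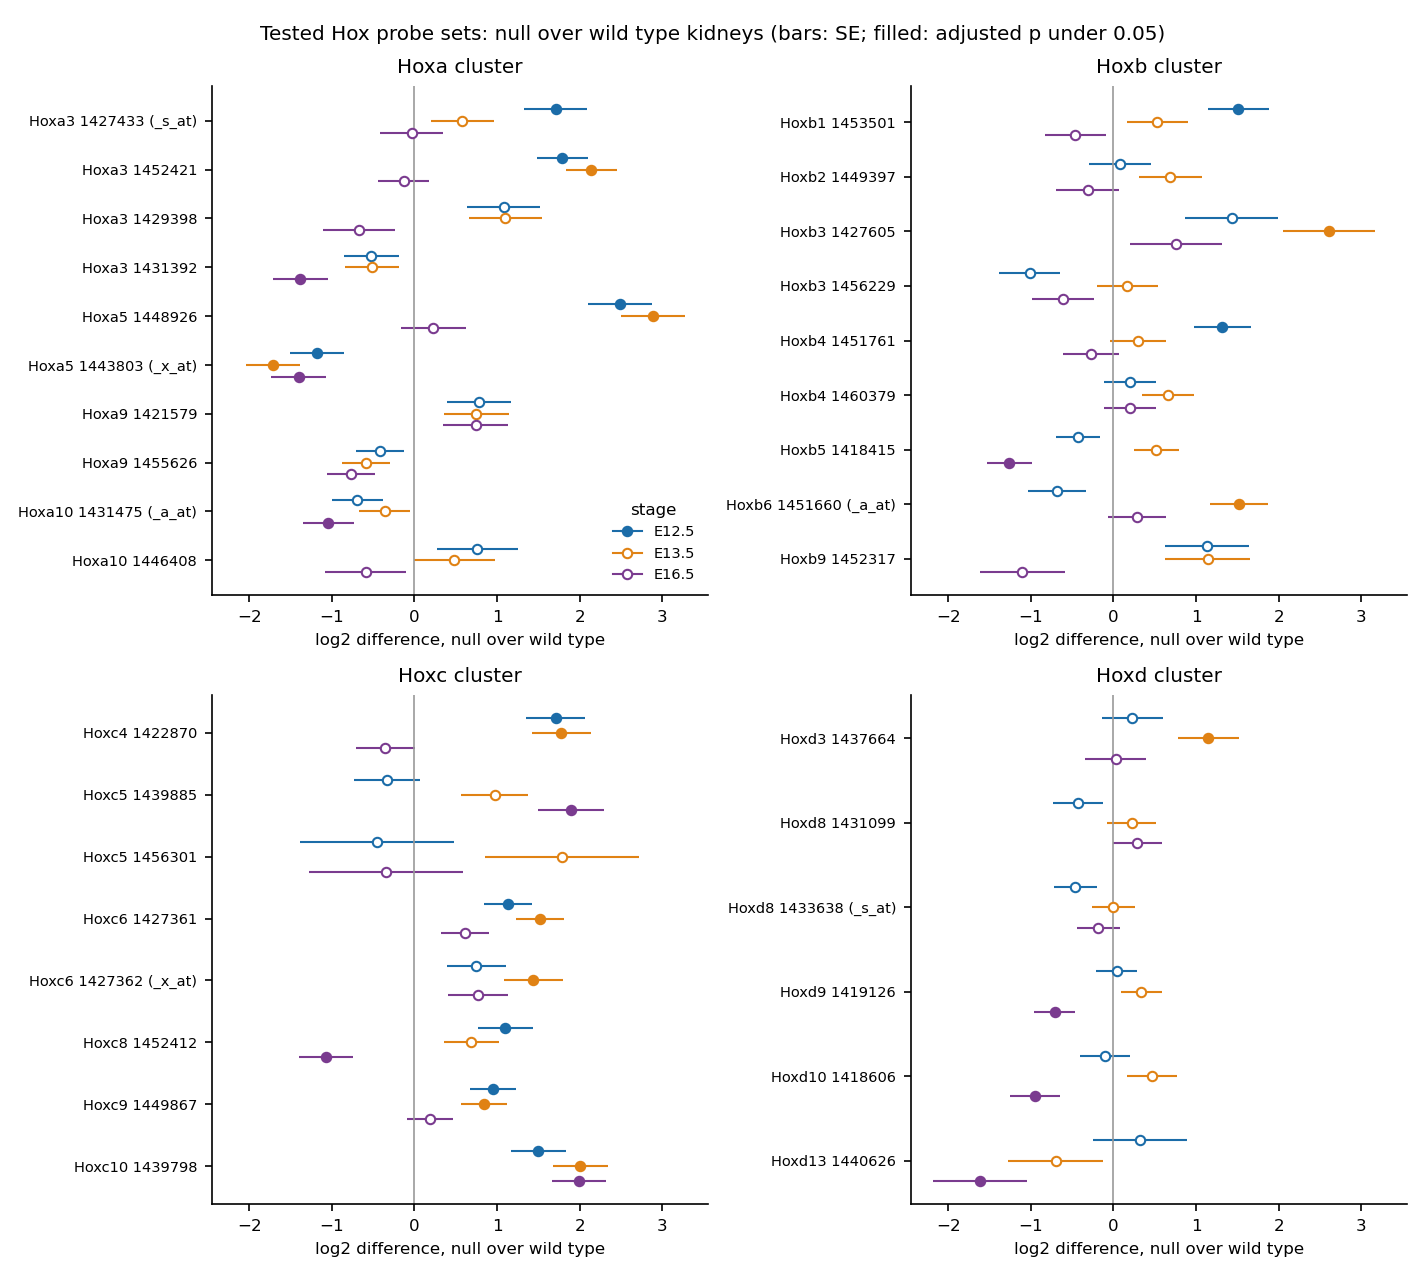
Log2 difference of null over wild type kidneys (x axis) for each tested Hox probe set, by cluster and in paralogue order down each panel. Points are differences for E12.5, E13.5 and E16.5 with their SE, filled where the adjusted p was under 0.05. Most filled points of clusters a to c at E12.5 and E13.5 lie right of 0, and 8 of the 10 filled points at E16.5 lie left of it.

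These counts rest on few samples. Leaving out wild type E12.5 replicate 1 left 2 calls at E12.5, leaving out wild type E12.5 replicate 2 left 4, and leaving out either null E12.5 replicate left 6. At E13.5, 7 calls were left without null E13.5 replicate 1 and 7 without wild type E13.5 replicate 2. At E16.5, 5 were left without null E16.5 replicate 1 and 6 without wild type E16.5 replicate 2. With the log2 actin ratio as a covariate, added after seeing the data, 1 member was called at E12.5 (Hoxc10), 2 at E13.5 (Hoxc10 and Hoxa5) and 7 at E16.5. Median centring gave 5 higher and 4 lower at E12.5, 11 higher and 2 lower at E13.5, and 2 higher and 6 lower at E16.5. Calls it added were Hoxa9 1455626_at, Hoxa10 1431475_a_at (-1.16), Hoxb5 (-0.90) and Hoxb6 (-1.16) at E12.5, Hoxa3 1429398_at, Hoxa9 1455626_at and Hoxc5 1439885_at (1.23) at E13.5, and Hoxa9 1455626_at at E16.5.

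Counts by cluster rest on 6 to 10 tested probe sets each, and differences between clusters were not tested. Cluster c had 5 of its 8 tested probe sets higher at E12.5 and 5 of 8 at E13.5, and 6 of 8 in the stage average, with none lower in these comparisons. Its shares were 62.5%, 62.5% and 75.0%, beside 18.6%, 23.4% and 46.9% of all tested called in either direction. At E16.5 it had 2 higher and 1 lower, 37.5% of its probe sets against 35.1% of all tested. Under median centring 2 of 8 were higher at E12.5 and 5 of 8 at E13.5. Cluster a had 3 of 10 higher and 1 lower at E12.5, 2 higher and 1 lower at E13.5, and 3 lower with none higher at E16.5. Its share at E16.5 was 30.0%, near the 35.1% of all tested. Cluster b had 2 of 9 higher at each of the early stages, 22.2%, near the 18.6% and 23.4% of all called in either direction. It had 1 lower at E16.5, 11.1% against 35.1% of all. Under median centring its 2 calls at E12.5 were lower, those of Hoxb5 and Hoxb6. Cluster d had 0 of 6 called at E12.5 by limma (0 at an unadjusted p under 0.05, and 0 by median centring or quantile normalization), 1 of 6 higher at E13.5 and 3 of 6 lower at E16.5. With the actin covariate clusters a, b, c and d had 0, 0, 1 and 0 calls at E12.5.

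**Figure D2:**
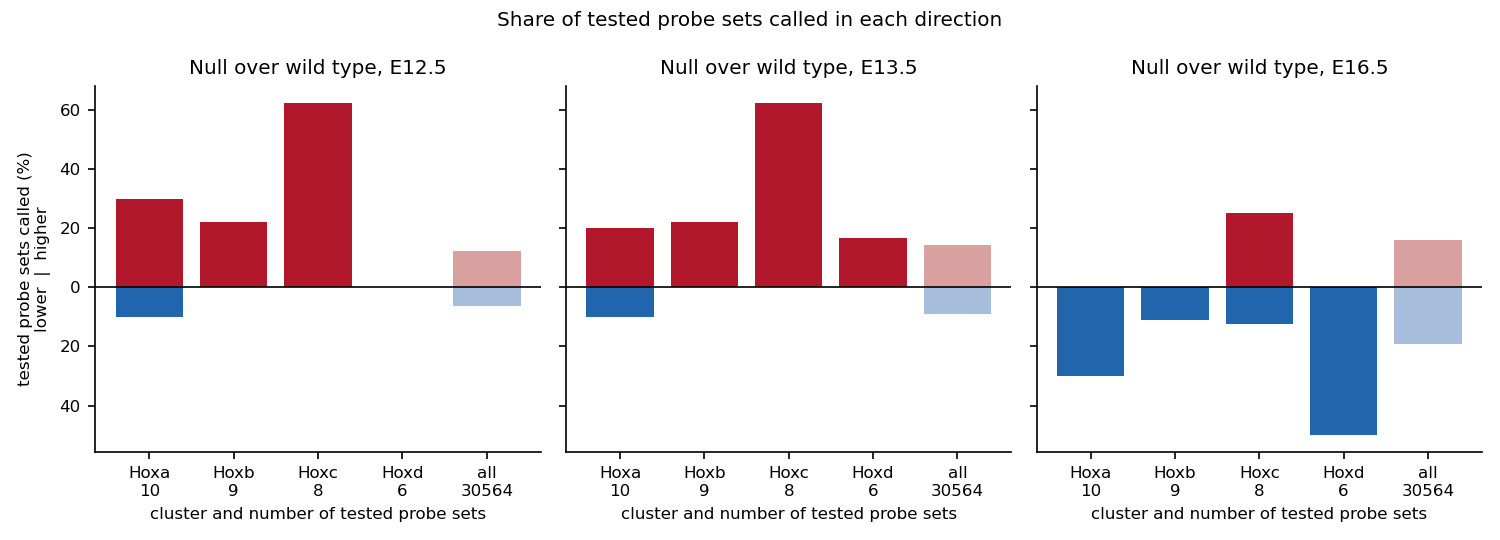
Share of tested probe sets called higher (upward bars) or lower (downward bars) in null kidneys, in percent, for each Hox cluster and for all 30564 tested probe sets, at the 3 stages. The numbers under the bars are the tested probe sets. At E12.5 and E13.5 the Hoxc bar is the tallest, 62.5% against 18.6% and 23.4% of all probe sets called in either direction.

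By paralogue number, groups 1 to 4 had 5 of 12 tested probe sets higher at E12.5 and 4 of 12 at E13.5, beside 12.4% and 14.4% of all tested probe sets, with 1 lower and none higher at E16.5. Groups 5 to 8 had 3 higher and 1 lower of 11 at E12.5, 4 higher and 1 lower at E13.5, and 1 higher and 3 lower at E16.5. Those shares were 36.4%, 45.5% and 36.4%, beside 18.6%, 23.4% and 35.1% of all tested, so the last was near the background. Groups 9 to 13 had 2 of 10 higher at E12.5 and 2 at E13.5, those of Hoxc9 and Hoxc10, a share of 20% that was near the 18.6% and 23.4% of all probe sets called in either direction. At E16.5 they had 1 higher and 4 lower, 50% against 35.1% of all. The 4 lower ones at E16.5 were Hoxa10, Hoxd9, Hoxd10 and Hoxd13. Hoxa10 and Hoxd10 are the neighbours of the targeted genes on the low-numbered side.

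Hoxa5, which patterns the neck, the upper trunk and the lung, was read by a pair of probe sets that went opposite ways. Probe set 1448926_at had 3390.0 and 3643 in null kidneys, against 524 and 746 in wild type kidneys at E12.5. The E13.5 signals were 3146 and 3528 in null kidneys, against 642 and 312 in wild type kidneys. All 4 null samples of these stages lay more than 4-fold above every wild type sample, with log2 differences of 2.49 ± 0.39 (adjusted p = 0.00106) and 2.89 ± 0.39 (adjusted p = 0.000413). At E16.5 it had 988 and 1634 in null kidneys, against 1214 and 973 in wild type kidneys, the groups overlapped, and the difference was 0.23 ± 0.39 (adjusted p = 0.681). Null signal fell between E13.5 and E16.5 while wild type signal rose. Both early calls held in every fit that left out 1 sample.

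The other Hoxa5 probe set, 1443803_x_at, was lower in null kidneys at all 3 stages. It had 4173 and 3079 in null kidneys, against 8696 and 7533 in wild type kidneys at E12.5. At E13.5 it had 2799.8 and 1964 in null kidneys, against 7940.5 and 7456 in wild type kidneys, and at E16.5 2589.9 and 1553 in null kidneys, against 4956 and 5615 in wild type kidneys. The groups did not overlap at any stage, and the differences were -1.18 ± 0.33, -1.71 ± 0.33 and -1.40 ± 0.33 (adjusted p = 0.0265, 0.00312 and 0.00606). Names ending in _x_at mark probe sets whose probes may also match other transcripts, and a sequence of its target was not used here. Under median centring its differences at E12.5 and E16.5 were not called (-1.06 and -0.74).

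Hoxa3, needed for the thymus, parathyroid and throat skeleton, had 4 tested probe sets. Probe set 1452421_at had 651 and 646 in null kidneys, against 199 and 176 in wild type kidneys at E12.5. On E13.5 it had 687 and 849 in null kidneys, against 187 and 162 in wild type kidneys, and at E16.5 233 and 272 in null kidneys, against 274 and 278 in wild type kidneys. Null samples were above all wild type samples at the early stages, with differences of 1.79 ± 0.31 and 2.14 ± 0.31 (adjusted p = 0.00206 and 0.000683). At E16.5 both null samples lay just under the wild type ones, and the difference of -0.13 ± 0.31 was not called (adjusted p = 0.769).

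A further Hoxa3 probe set, 1427433_s_at, had 542 and 541 in null kidneys, against 125 and 220.0 in wild type kidneys at E12.5, a difference of 1.71 ± 0.38 (adjusted p = 0.00779). The E13.5 signals were 463 and 375 in null kidneys, against 269 and 289.5 in wild type kidneys, and at E16.5 239.5 and 324 in null kidneys, against 309 and 264 in wild type kidneys, neither called. Probe set 1429398_at was called at no stage without centring, with 1591 and 1125 in null kidneys, against 706 and 571 in wild type kidneys at E12.5. It had 1186 and 1081 in null kidneys, against 549 and 507 in wild type kidneys at E13.5, and 284 and 563 in null kidneys, against 554 and 735 in wild type kidneys at E16.5. Its null samples were above the wild type ones at the early stages, with differences of 1.08 and 1.10 (adjusted p = 0.105 and 0.0866), and under median centring the E13.5 difference was called (1.37 ± 0.43, adjusted p = 0.0348).

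The last Hoxa3 probe set, 1431392_at, went the other way. It had 1195 and 867 in null kidneys, against 1487 and 1442 in wild type kidneys at E12.5. It had 1289 and 1427 in null kidneys, against 2242 and 1664 in wild type kidneys at E13.5, and 716 and 627 in null kidneys, against 1714 and 1771 in wild type kidneys at E16.5. Null samples were the lower ones at every stage, and the difference was called at E16.5 (-1.38 ± 0.33, adjusted p = 0.00645), though not under median centring (-0.72). The stage average therefore called Hoxa3 in both directions, at 1.26 ± 0.18 and 0.75 ± 0.22 against -0.80 ± 0.19. Under median centring the differences of 1427433_s_at and 1431392_at were not called (0.49 and -0.46, adjusted p = 0.0761 and 0.086), and 1429398_at was called in their place (0.85, adjusted p = 0.0131), so all calls of Hoxa3 were then higher.

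Cluster c genes pattern the trunk and the spinal cord at limb and thoracic levels. Hoxc4 (1422870_at) had 1787 and 1280.4 in null kidneys, against 451 and 475 in wild type kidneys at E12.5. It had 2093 and 1495 in null kidneys, against 398 and 670.4 in wild type kidneys at E13.5, and 372 and 688 in null kidneys, against 626 and 661 in wild type kidneys at E16.5. Null samples were the higher ones at E12.5 (1.71 ± 0.36, adjusted p = 0.00641) and E13.5 (1.78 ± 0.36, adjusted p = 0.0042). At E16.5 the groups overlapped and the difference was -0.35 ± 0.36 (adjusted p = 0.48).

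Hoxc6, expressed at forelimb level, had a pair of tested probe sets that agreed in direction. Probe set 1427361_at had 926 and 1075 in null kidneys, against 432 and 478 in wild type kidneys at E12.5. It had 1819 and 1169 in null kidneys, against 532 and 483 in wild type kidneys at E13.5, and 614 and 568 in null kidneys, against 432 and 346 in wild type kidneys at E16.5. Null samples were above wild type samples at all 3 stages, and the difference was called at E12.5 (1.13 ± 0.29) and E13.5 (1.52 ± 0.29) but not at E16.5 (0.61 ± 0.29, adjusted p = 0.121). Under median centring the E12.5 difference of this probe set was 0.66 and not called.

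The Hoxc6 probe set 1427362_x_at had 910.3 and 1021 in null kidneys, against 476 and 689 in wild type kidneys at E12.5, a difference that was not called (0.75 ± 0.36, adjusted p = 0.167). At E13.5 it had 1888 and 1499 in null kidneys, against 652 and 591 in wild type kidneys and was called (1.44 ± 0.36, adjusted p = 0.0129). At E16.5 it had 906 and 1022 in null kidneys, against 855 and 375 in wild type kidneys, with a difference of 0.77 ± 0.36 that was not called. The Hoxc6 probe set 1427454_at was too low to be tested and was at the floor on 6 of 14 arrays. Without the filter its differences were 0.05, -0.39 and -1.61 at the 3 stages, none called. At E16.5 it had 80.8 and 82.4 in null kidneys, against 216 and 322 in wild type kidneys.

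Hoxc10, a gene of the lumbar level and hindlimb, was the only member called higher at every stage. Probe set 1439798_at had 51155 and 35878 in null kidneys, against 14878 and 15512 in wild type kidneys at E12.5. It had 45663 and 32354 in null kidneys, against 10760.2 and 8504 in wild type kidneys at E13.5, and 35657 and 33846 in null kidneys, against 7375 and 10302 in wild type kidneys at E16.5. The groups were far apart at each stage, with differences of 1.50 ± 0.33, 2.01 ± 0.33 and 1.99 ± 0.33 (adjusted p = 0.0083, 0.00132 and 0.000708). These are 2.82-fold, 4.02-fold and 3.99-fold. With the actin ratio as a covariate Hoxc10 was still called at each stage, at 2.42, 2.96 and 2.30. At E12.5 the call was lost in 3 of the 14 fits that left out 1 sample.

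**Figure D3:**
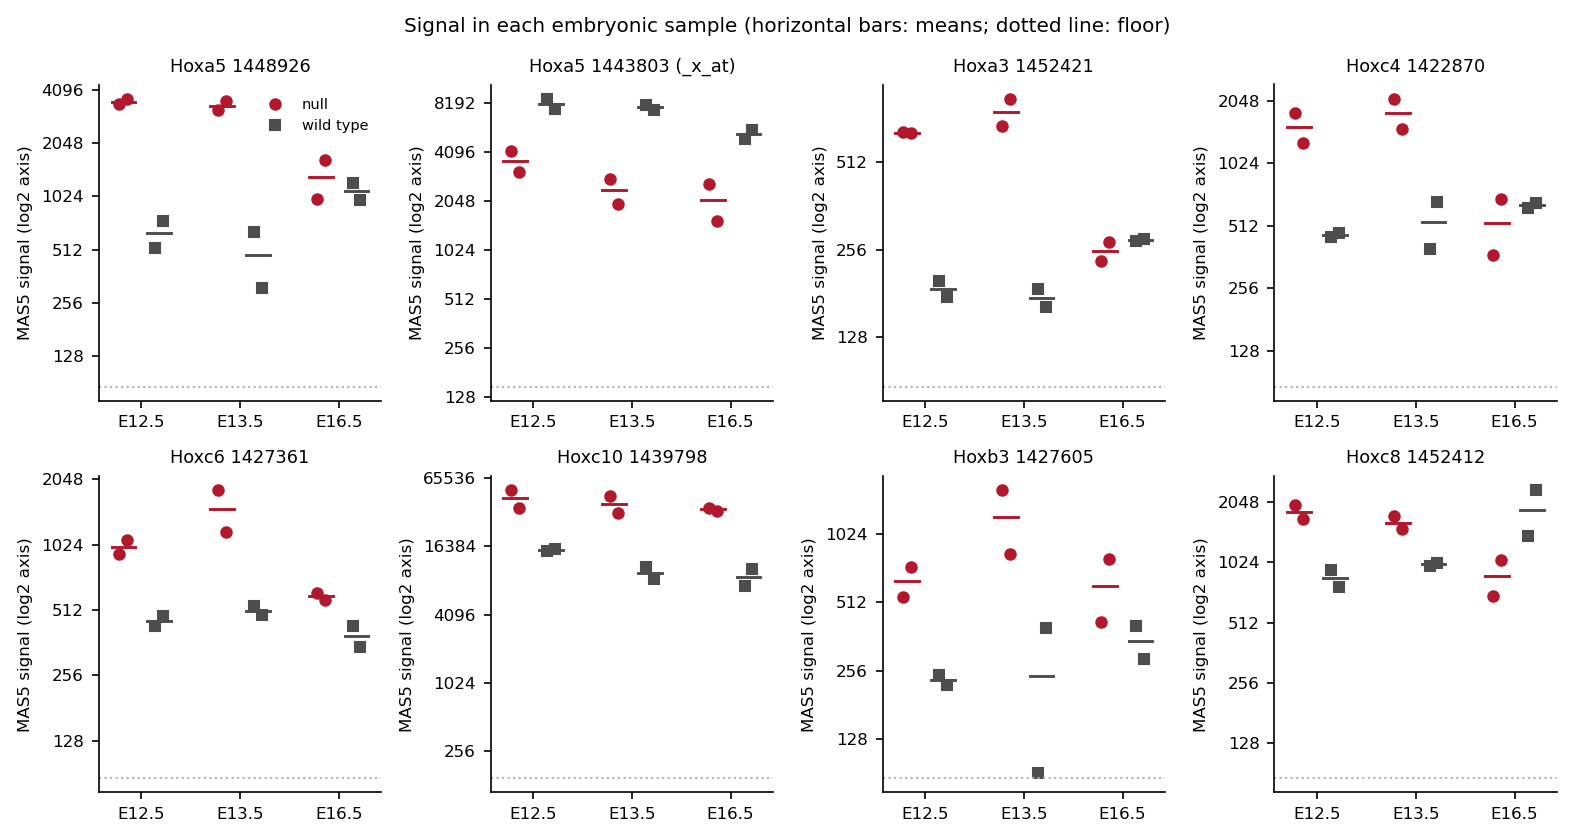
MAS5 signal (log2 axis) of 8 probe sets in each null (circles, left) and wild type (squares, right) sample for E12.5, E13.5 and E16.5; horizontal bars are group means and the dotted line is the floor. Null signals of Hoxa5 1448926, Hoxa3 1452421, Hoxc4 and Hoxc6 fall at E16.5 to or towards the wild type level, while those of Hoxc10 stay between 32354 and 51155, above all wild type values.

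Hoxc8 was called in opposite directions at E12.5 and E16.5. Hoxc8 (1452412_at), a gene of the lower neck and thorax, had 1970.1 and 1682 in null kidneys, against 936 and 769.9 in wild type kidneys at E12.5. It had 1728 and 1491 in null kidneys, against 978 and 1018 in wild type kidneys at E13.5, and 692 and 1054 in null kidneys, against 1375 and 2329 in wild type kidneys at E16.5. It was higher in null kidneys at E12.5 (1.10 ± 0.33, adjusted p = 0.0357), not called at E13.5 (0.69 ± 0.33), and lower at E16.5 (-1.07 ± 0.33, adjusted p = 0.0244). The groups did not overlap at any of these stages, and the E12.5 difference was 0.63 and not called under median centring.

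Hoxc5 (1439885_at) had 3098 and 3435 in null kidneys, against 4536 and 3713 in wild type kidneys at E12.5. It had 4182 and 5618 in null kidneys, against 3431 and 1792 in wild type kidneys at E13.5, and 2271 and 4784 in null kidneys, against 733 and 1076 in wild type kidneys at E16.5. The difference at E12.5 was not called (-0.33 ± 0.40), and at E16.5 both null samples were above the wild type ones (1.89 ± 0.40, adjusted p = 0.00305). Wild type signal was lower at E16.5 than at E13.5. The other tested Hoxc5 probe set, 1456301_at, was called at no stage and had the widest SE of any member (differences of -0.45 ± 0.93, 1.79 ± 0.93 and -0.34 ± 0.93).

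Hoxc9 (1449867_at), which marks thoracic motor columns, had 2284 and 2012 in null kidneys, against 1076 and 1145 in wild type kidneys at E12.5. It had 1397 and 1578 in null kidneys, against 963 and 710.3 in wild type kidneys at E13.5, and 765 and 683 in null kidneys, against 669.7 and 601 in wild type kidneys at E16.5. Null samples were above wild type samples at every stage, by 0.95 ± 0.28, 0.84 ± 0.28 and 0.19 ± 0.28, called at the 2 early stages. Neither early call held under median centring (0.48 and 0.52).

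In cluster b, Hoxb3 had a pair of probe sets with different results. Probe set 1427605_at had 542 and 731 in null kidneys, against 246 and 222 in wild type kidneys at E12.5. It had 1590.1 and 837 in null kidneys, against 90.2 and 394 in wild type kidneys at E13.5, and 419.8 and 789 in null kidneys, against 400.3 and 288 in wild type kidneys at E16.5. All null samples were above the wild type samples of their stage, and the difference was called at E13.5 (2.61 ± 0.56, adjusted p = 0.00554), where 1 wild type signal was close to the floor. Its differences at the other stages were 1.43 ± 0.56 for E12.5 and 0.76 ± 0.56 for E16.5, with adjusted p = 0.0933 and 0.31. The probe set 1456229_at was called at no stage, with differences of -1.01, 0.17 and -0.61.

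Hoxb1, a gene of the hindbrain, and Hoxb4 were called at E12.5 only. Hoxb1 (1453501_at) had 1049 and 887 in null kidneys, against 334 and 341 in wild type kidneys at that stage (1.51 ± 0.37, adjusted p = 0.0141), but was not called under median centring (1.04). Hoxb4 had a difference of 1.32 ± 0.34 on probe set 1451761_at (adjusted p = 0.0162) and 0.20 ± 0.31 on 1460379_at (adjusted p = 0.698). Under median centring no cluster b probe set was called higher at E12.5, so the Hoxb4 call was not kept either. Hoxb4 1451761_at was called in 8 of the 14 fits that left out 1 sample.

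Hoxb5 (1418415_at), which acts in the gut's nervous system and the lung, was called at E16.5 only. It then had 650.2 and 974 in null kidneys, against 1737 and 2096 in wild type kidneys, 2.4-fold lower in null kidneys (-1.26 ± 0.27, adjusted p = 0.00346), and the call held in all 14 fits that left out 1 sample. Hoxb6 (1451660_a_at) was called at E13.5 only. It had 2359 and 2185 in null kidneys, against 897 and 702 in wild type kidneys there (1.52 ± 0.35, adjusted p = 0.00854), and null samples lay below wild type ones at E12.5 (-0.68, adjusted p = 0.194). Hoxb2 and Hoxb9 had no called difference, with ranges over the stages of -0.31 to 0.69 and -1.10 to 1.14.

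Among the group 9 and 10 genes of cluster a, both genes were read by pairs of probe sets that differed. Hoxa9, a gene of the trunk and of blood progenitors, was called at no single stage, but in both directions in the stage average. Its probe set 1421579_at had 1549 and 1999 in null kidneys, against 932 and 1120.5 in wild type kidneys at E12.5. On E13.5 it had 2047 and 1673 in null kidneys, against 1071 and 1128 in wild type kidneys, and at E16.5 961 and 1711 in null kidneys, against 807 and 733 in wild type kidneys, with null samples the higher ones throughout and a stage average of 0.76 ± 0.23 (adjusted p = 0.0151).

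The Hoxa9 probe set 1455626_at had 6652 and 4608 in null kidneys, against 7721 and 7119.7 in wild type kidneys at E12.5. The E13.5 signals were 5476 and 4466 in null kidneys, against 6376 and 8607 in wild type kidneys, and at E16.5 5436 and 5807 in null kidneys, against 10718 and 8594 in wild type kidneys. Here null samples were the lower ones at every stage, with a stage average of -0.59 ± 0.17 (adjusted p = 0.0105). Under median centring 1455626_at was called lower at every stage as well (-0.89, -0.91 and -0.77, adjusted p = 0.037, 0.0329 and 0.048), its stage average stayed called, and that of 1421579_at was not called (0.49).

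Hoxa10, a gene of the lumbar level and the uterus, was read on probe set 1431475_a_at with 3583 and 1923 in null kidneys, against 3805 and 4728 in wild type kidneys at E12.5. At E13.5 it had 3914 and 2580.2 in null kidneys, against 3796 and 4385 in wild type kidneys, which overlapped, and at E16.5 1526 and 1869 in null kidneys, against 3421 and 3519 in wild type kidneys. The difference was called at E16.5 (-1.04 ± 0.31, adjusted p = 0.0197) and in the stage average (-0.70 ± 0.18, adjusted p = 0.00645). The Hoxa10 probe set 1446408_at was called at no stage, with differences of 0.76, 0.48 and -0.59.

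Among members, cluster d, which holds the targeted Hoxd11, had the fewest calls at the early stages. Probe sets of this cluster outside the rule, described below, did rise early. Hoxd3os1 1460056_at was higher by 4.19 and 4.74, and the probe sets shared by Hoxd4 and Hoxd3 by 3.52 and 2.14 at E13.5. The other Hoxd3os1 probe set, 1430263_at, had no early call. The 1 early call among cluster d members was Hoxd3 (1437664_at), a gene of the neck vertebrae, at E13.5. It had 1962 and 1888 in null kidneys, against 969 and 776 in wild type kidneys (1.15 ± 0.37, adjusted p = 0.0395). Hoxd3 was called in 6 of the 14 fits that left out 1 sample. At E16.5 the 3 high-numbered genes were lower in null kidneys. Hoxd9 (1419126_at) had 4849.6 and 3994 in null kidneys, against 7185 and 7262 in wild type kidneys (-0.71 ± 0.25, adjusted p = 0.0378).

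Hoxd10 (1418606_at), the neighbour of Hoxd11 and a gene of lumbar motor neurons, had 1412 and 2197 in null kidneys, against 4205 and 2748 in wild type kidneys at E16.5 (-0.95 ± 0.30, adjusted p = 0.0277). At the early stages its differences were -0.10 and 0.47 and not called. Hoxd13 (1440626_at), a gene of digits, hindgut and genital tubercle, had 250.1 and 235 in null kidneys, against 644 and 846 in wild type kidneys at E16.5 (-1.61 ± 0.57, adjusted p = 0.042). The Hoxd13 call was kept in 4 of the 14 fits that left out 1 sample and was lost under median centring (-0.95). At E12.5 its null samples were far apart, at 1515 and 4268.

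A test of whether the null effect differed between stages called 7 of 33 member probe sets (21.2%), against 14.3% of all tested. The 4 with the smallest p were Hoxa3 1452421_at (adjusted p = 0.0081), Hoxa5 1448926_at (0.0111), Hoxc8 (0.0152) and Hoxc4 (0.0185). Hoxb5, Hoxb6 and Hoxc5 1439885_at followed. Only the null E16.5 arrays were read on the other scanner, so its effect cannot be told apart from that of stage in this test. The count was 2 without wild type E16.5 replicate 1, 3 without wild type E16.5 replicate 2, 3 without null E16.5 replicate 1, and 4 with no filter on low signal.

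In null kidneys, E16.5 set against E13.5 gave mostly lower Hox signals at the later stage. The null E16.5 arrays were read on another scanner and on another day than the null E13.5 arrays. Effects of scanner, day and stage therefore cannot be told apart in this comparison. Of 33 tested member probe sets, 12 were called (36.4%), 2 higher and 10 lower, against 15.0% of all tested (5.83% higher and 9.20% lower). Over all 46 members the median log2 difference was -0.71, beside -0.18 over all probe sets. The 10 lower ones included Hoxc4 (-1.81 ± 0.36), Hoxa3 1452421_at (-1.60 ± 0.31), Hoxa5 1448926_at (-1.39 ± 0.39), Hoxc6 1427361_at (-1.30 ± 0.29) and Hoxb1 (-1.46 ± 0.37). The 2 higher ones were both probe sets of Hoxd8. Leaving out null E16.5 replicate 1 left 1 call, null E13.5 replicate 1 left 3 and null E13.5 replicate 2 left 4, and median centring gave 7, of which Hoxa5 was not one (-1.23).

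In wild type kidneys the same step, E16.5 against E13.5, called 6 of 33 (18.2%), 5 higher and 1 lower, against 20.5% of all tested (11.5% higher and 9.07% lower). The higher ones were the Hoxd8 pair, Hoxd9 (0.87 ± 0.25), Hoxb3 1456229_at (1.16 ± 0.37) and Hoxa5 1448926_at (1.28 ± 0.39), and Hoxc5 1439885_at was lower (-1.48 ± 0.40). Without wild type E16.5 replicate 1 there was 1 call, without its replicate 2 there were 2, and without wild type E13.5 replicate 1 there were 3. Median centring gave 3. This step shares its wild type samples with the null comparisons above, so these values are not independent of those.

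Hoxd8 (1433638_s_at) moved most between stages, and in the same direction in both genotypes. It had 14347 and 11613 in null kidneys at E16.5, against 2355 and 1988 at E13.5. In wild type kidneys it had 16713 and 12719.6 at E16.5, against 2139 and 2199 at E13.5. The later samples were all at least 4-fold above the earlier ones, with differences of 2.58 ± 0.26 in null kidneys (adjusted p = 4.69e-05) and 2.75 ± 0.26 in wild type kidneys (adjusted p = 3.02e-05). No difference of null over wild type kidneys was called for it at any stage (-0.46 ± 0.26, 0.00 ± 0.26 and -0.18 ± 0.26). The second Hoxd8 probe set, 1431099_at, also rose, by 1.19 ± 0.30 in null and 1.12 ± 0.30 in wild type kidneys.

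Wild type embryonic kidneys set against adult kidneys ask which Hox genes decline once the kidney is formed. Nearly all members that differed were higher in the embryo, with Hoxb3, Hoxc4, Hoxc9 and Hoxd13 among the largest, and Hoxd8 was the exception. RNA preparation and input differ between these groups as well and cannot be told apart from age. The comparisons share their adult samples.

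At E12.5, 13 of 33 tested member probe sets were called (39.4%), 12 higher and 1 lower than in the adult, against 35.3% of all tested. At E13.5 it was 11 of 33 (33.3%), 9 higher and 2 lower, against 36.3%, and at E16.5 13 of 33 (39.4%), all higher, against 42.7%. The shares called were near the background, while the direction was one-sided: 20.2%, 21.4% and 24.6% of all tested probe sets were higher in the embryo and 15.1%, 14.9% and 18.0% lower. Over all 46 members the median log2 difference was 0.46, 0.32 and 0.23, beside 0.00, 0.07 and 0.00 over all probe sets. Without wild type E16.5 replicate 1 there were 7 calls at E16.5.

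Hoxd13 (1440626_at) had 1776 and 2346 on E12.5, 1677 and 1544 on E13.5, 644 and 846 on E16.5 and 161 and 520.1 in the adult. It declined with age, and the difference from the adult was called at E12.5 (2.82 ± 0.57, adjusted p = 0.00136) and E13.5 (2.47 ± 0.57) but not at E16.5 (1.35 ± 0.57, adjusted p = 0.071). Hoxc9 (1449867_at) had 1076 and 1145 on E12.5, 963 and 710.3 on E13.5, 669.7 and 601 on E16.5 and 166 and 226 in the adult. Its samples stood in the same order as its stages, with differences from the adult of 2.52 ± 0.28, 2.09 ± 0.28 and 1.71 ± 0.28, all called.

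Hoxc4 (1422870_at) had 451 and 475 on E12.5, 398 and 670.4 on E13.5, 626 and 661 on E16.5 and 27.5 and 40.3 in the adult. Both adult signals were under the floor of 86.1, so the differences of 2.43, 2.58 and 2.90 are set against the floor and are lower bounds. That is at least 5.37-fold, 6-fold and 7.47-fold higher in the embryo. Hoxc5 (1439885_at) had 4536 and 3713 on E12.5, 3431 and 1792 on E13.5, 733 and 1076 on E16.5 and 948 and 1139 in the adult. It was near its adult level by E16.5 (1.98 ± 0.40, 1.25 ± 0.40 and -0.23 ± 0.40, the first 2 called).

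Hoxb3 (1456229_at) had 11786 and 6918 on E12.5, 3834 and 3768 on E13.5, 9911 and 7279.8 on E16.5 and 901 and 2049.8 in the adult. All embryonic samples were above the adult ones, E13.5 least so, with called differences of 2.73 ± 0.37, 1.48 ± 0.37 and 2.64 ± 0.37. Hoxb5 (1418415_at) had 1834 and 1876 on E12.5, 1096 and 1252 on E13.5, 1737 and 2096 on E16.5 and 664 and 595 in the adult, again lowest among embryonic stages at E13.5. Its differences of 1.56 ± 0.27, 0.90 ± 0.27 and 1.60 ± 0.27 were all called.

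Hoxd3 (1437664_at) had 1231 and 2035 on E12.5, 969 and 776 on E13.5, 1255 and 1130.3 on E16.5 and 484 and 436 in the adult. All embryonic samples were above the adult ones, and the difference was called at E12.5 (1.78 ± 0.37) and E16.5 (1.37 ± 0.37) but not at E13.5 (0.92 ± 0.37, adjusted p = 0.0716). Hoxd8 (1433638_s_at) ran against the others, with 4192 and 3293 on E12.5, 2139 and 2199 on E13.5, 16713 and 12719.6 on E16.5 and 14679 and 17896 in the adult. It was lower than in the adult at E12.5 (-2.13 ± 0.26, adjusted p = 2.22e-05) and E13.5 (-2.90 ± 0.26, adjusted p = 1.26e-06), and overlapped the adult samples at E16.5 (-0.15 ± 0.26, adjusted p = 0.666).

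**Figure D4:**
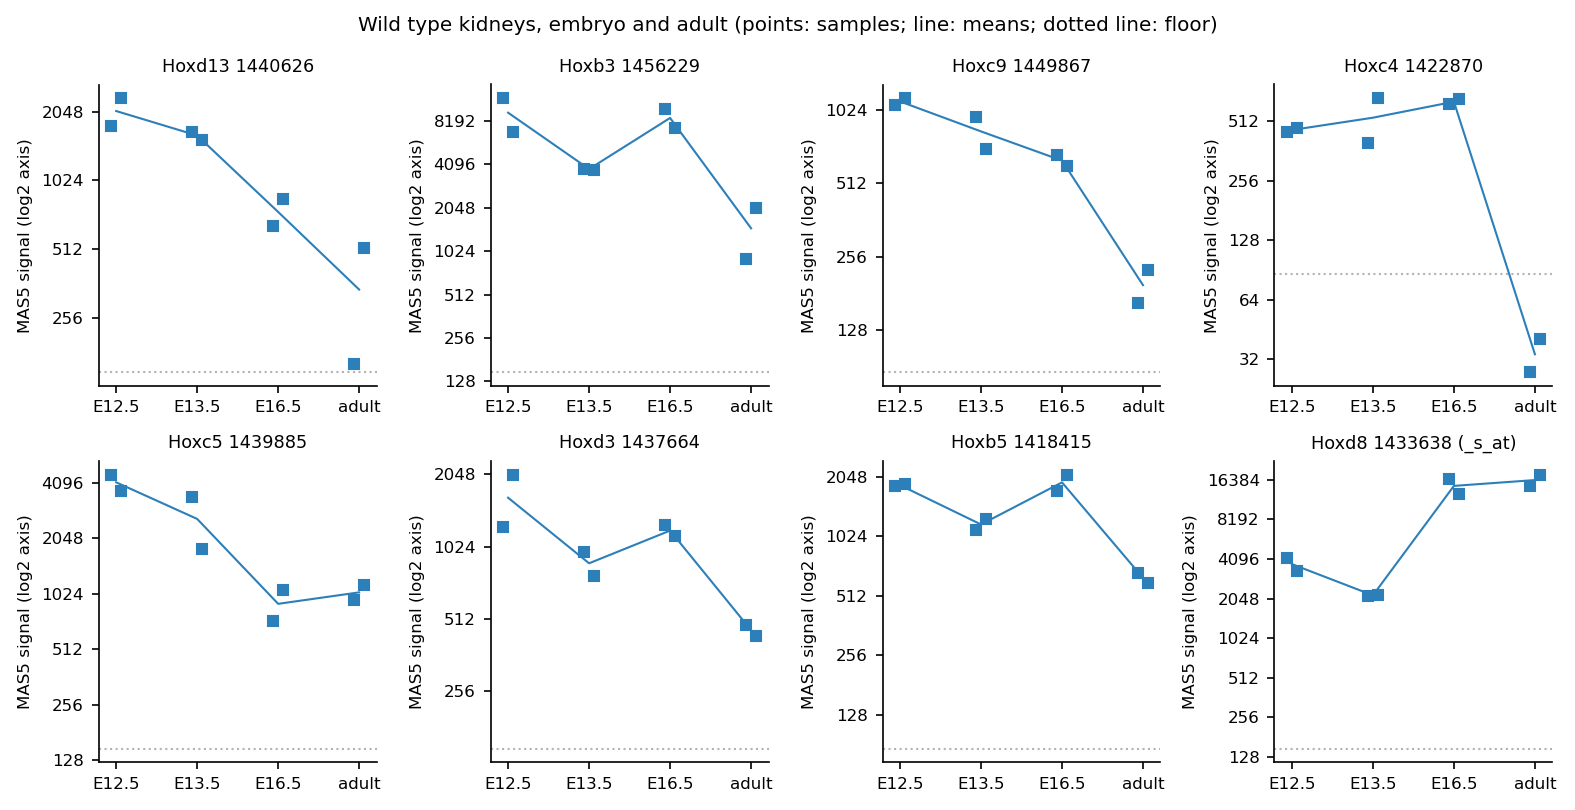
MAS5 signal (log2 axis) of 8 probe sets in each wild type kidney sample at E12.5, E13.5, E16.5 and in the adult; lines join group means and dotted lines are the floors. For 7 of the probe sets the adult mean is below the E12.5 mean, and Hoxd8 1433638 is the exception.

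The remaining called members of the E12.5 comparison were Hoxa10 1431475_a_at (1.27 ± 0.31), Hoxb1 (1.26 ± 0.37), Hoxb4 1460379_at (1.19 ± 0.31), Hoxc8 (1.32 ± 0.33) and Hoxc10 (1.48 ± 0.33), all higher in the embryo. Hoxa3, Hoxa5, Hoxa9, Hoxb2, Hoxb6, Hoxb9, Hoxc6, Hoxd9 and Hoxd10 had no called difference there. Cluster a thus had 1 of 10 called, and clusters b, c and d 4 of 9, 5 of 8 and 3 of 6.

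Where a gene had several tested probe sets, their signs often differed. Of 9 such genes, all probe sets had the same sign in 4 at E12.5, 4 at E13.5 and 3 at E16.5 for null over wild type, and in 7, 7 and 3 for wild type over adult at these stages. Calls in opposite directions for 1 gene occurred for Hoxa5 at E12.5 and E13.5, and for Hoxa3, Hoxa5 and Hoxa9 in the stage average.

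The known partners and regulators of Hox genes, from lists chosen with earlier results of these data known, moved with many other genes. TALE cofactors had 6 of 7 tested genes higher in null kidneys at E12.5, against 5 of 7 at E13.5, and each time 1 more gene had probe sets called in both directions. At E16.5, 1 of 7 was higher and 2 were lower. Of their 17 tested probe sets, 12, 12 and 4 were called at the 3 stages, beside 18.6%, 23.4% and 35.1% of all tested. The median over their 17 tested probe sets was 1.25, 1.30 and -0.34, beside -0.02, -0.02 and -0.22 over all tested probe sets. Meis1 (1443260_at) was 2.95 ± 0.43 and 2.98 ± 0.43 higher at the early stages and was lower at E16.5 (-2.57 ± 0.43). Its 1450992_a_at was also higher at the early stages (2.10 ± 0.33 and 1.99 ± 0.33), whereas 1459423_at was lower at E13.5 (-1.47 ± 0.41) and not called at E12.5 (-0.40 ± 0.41). Meis2 (1440091_at) was 3.14 ± 0.46 and 2.92 ± 0.46 higher at the early stages, while its 1447861_x_at was lower at E12.5 (-1.14) and E16.5 (-3.00 ± 0.32).

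Polycomb repressors had 5 of 16 tested genes higher and 1 lower at E12.5, 7 higher and 1 lower at E13.5, and 7 higher and 7 lower at E16.5, with medians of 0.41, 0.69 and -0.33. Of their 28 tested probe sets, 8, 13 and 19 were called, beside 18.6%, 23.4% and 35.1% of all tested. Jarid2 (1450710_at), a recruiting subunit, was higher throughout (2.41 ± 0.41, 2.92 ± 0.41 and 2.46 ± 0.41), while at E16.5 the core members Bmi1 (1448733_at, -2.37 ± 0.42) and Rnf2 (1424873_at, -2.36 ± 0.44) were lower. Trithorax activators had 3 of 9 higher and 1 lower, 4 higher and 1 lower, and 2 higher and 2 lower at the 3 stages, with medians of 0.50, 0.68 and 0.45. Of their 17 tested probe sets, 5, 7 and 5 were called, the last near the 35.1% of all tested. The methyltransferase Kmt2a (1427283_at) was higher at the early stages (2.24 ± 0.32 and 2.29 ± 0.32). The demethylase Kdm6a (1427235_at) was lower at E16.5 (-3.00 ± 0.49).

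Of the upstream regulators, 5 of 14 listed genes were tested, and 3 were higher at each early stage with none lower. They were Gata6 (1425464_at, 3.28 ± 0.32 and 3.21 ± 0.32), the retinoic acid receptor Rarg (1.31 ± 0.41 and 1.21 ± 0.41) and the retinoic acid degrading enzyme Cyp26b1 (1.26 ± 0.31 and 2.88 ± 0.31). At E16.5 the retinoic acid synthesis enzyme Aldh1a2 was lower (-0.75 ± 0.22) and Gata6 higher (1.52 ± 0.32). Of the 7 tested probe sets of this list, 4, 4 and 3 were called at the 3 stages, beside 18.6%, 23.4% and 35.1% of all tested. Cdx2, which sets posterior Hox domains and marks hindgut, had both probe sets untested, 1 of them at the floor on all 14 arrays.

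Markers of other cells moved beside the Hox genes. Of all tested probe sets, 18.6%, 23.4% and 35.1% were called in null over wild type kidneys at the 3 stages. Renal stroma markers had 6 of 7 genes higher and none lower in null kidneys at E12.5, and their summed signal was 100448 to 108151 in null samples, against 32486 to 38021 in wild type samples. At E13.5 the sums were 105271 to 113253 in null and 34095 to 34513 in wild type samples. At E16.5 they were 99234 to 112131 in null and 64981 to 72613 in wild type samples. At that stage 3 of the 7 genes were higher and 1 was lower, with a median of 0.12 over 15 tested probe sets. Much of the E16.5 sum came from Col1a2 (1450857_a_at, mean 51670 in null and 17922 in wild type samples). Meis1 1443260_at ran the other way, with means of 4781 and 23982. Endothelial markers had 6 of 7 higher at E12.5, with sums of 22333 to 25064 in null and 6308 to 6947 in wild type samples. At E16.5 they had 4 of 7 higher, with sums of 29727 to 29996 in null and 9066 to 12605 in wild type samples. Markers of paraxial mesoderm, cartilage and muscle had 2 of 5 tested genes higher at E12.5 (Col2a1 and Col9a1), with sums of 18460 to 20019 in null and 5695 to 7683 in wild type samples, and both Pax1 probe sets were at the floor on 12 of 14 arrays. Neuron markers had 2 of 4 higher at E12.5 (Nefm and Elavl4), with sums of 10862 to 10969 in null and 6623 to 7646 in wild type samples.

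Markers of tissue around the kidney and of blood varied by list and stage. Adrenal and gonad markers had 1 of 6 tested genes higher at E12.5, with sums of 7645 to 13292 in null and 4402 to 5835 in wild type samples. Hindgut and bladder markers had 0 of 3 called at E12.5 and E13.5, with sums of 2967 to 3467 in null and 2192 to 4148 in wild type samples at E12.5. At E16.5 the sums of the paraxial list were 2625 to 3292 in null and 2657 to 3133 in wild type samples. Red blood cell markers had 0 of 3 tested genes called at E12.5 and 1 lower at E13.5, and all 3 were lower at E16.5 (Hbb-y, Hba-x and Slc4a1). Their sums at E16.5 were 3937 to 7281 in null and 32221 to 41299 in wild type samples. The part of these cells in the Hox differences was not tested.

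The labelled tissue was borne out by its markers in part. Metanephric mesenchyme markers summed to 14538 to 14753 in null and 22312 to 32461 in wild type samples at E12.5, and to 3358 to 3862 in adult samples. Most of the E12.5 gap came from Eya1 1457424_at, with means of 6374.5 in null and 18256.9 in wild type samples. The list as a whole had no such direction, with 2 genes higher, 2 lower and a median of 0.57 over 8 tested probe sets. In null kidneys at E12.5 Cited1 (-3.05) and Eya1 1457424_at (-1.48) were lower and Osr1 (1.60) and Sall1 1450489_at (1.57) higher. Other tested probe sets of Eya1 and Sall1 ran the other way and were not called. Eya1 1443117_at had means of 361.6 in null and 72.8 in wild type samples, and Sall1 1437983_at 3494.4 and 4941.8. Eya1 1443117_at and Sall1 1450489_at were at the floor on 6 of 14 arrays each. Ureteric markers summed to 7772 to 12965 in null and 20477 to 21219 in wild type samples at that stage. Of their 5 tested genes, 1 was higher and 2 were lower, with a median of -0.4 over 8 probe sets. Much of the gap came from Calb1 1417504_at (means of 1673 in null and 7958 in wild type samples) and Emx2 (2361 and 6009). Gata3 (993 and 166) and Calb1 1458836_at (745 and 445) ran the other way. Adult tubule markers summed to 3434 to 3548 in wild type samples at E12.5, against 140543 to 148455 in adult samples.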

How the data were processed

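RNA of 14 mouse kidney samples in 7 groups of 2 was measured on 28 Affymetrix arrays, each sample on the designs 430A and 430B. The deposited values are MAS5 signal intensity per probe set on a linear scale, per the submitters' processing notes, scaled by the authors to 1 trimmed mean per array (here over all but the outer 2% at each end). Detection calls and array settings are not given in the sources used here. The run records of both arrays of adult replicate 2 name the opposite design, so each was taken from its partner array for scan day, and the signals themselves were kept under their labels.

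Signals under the 20th percentile of a design were set to it, and log2 was taken. A probe set was tested where its mean log2 value passed the design's median in at least 1 group, which left 14576 on 430A and 15988 on 430B. The 64 control probe sets of each design and the 430B values of 100 shared probe sets were left out. Group means were fitted per design to the 14 arrays together, which leaves 7 residual degrees of freedom, with lmFit and trended eBayes of limma 3.58.1 (R 4.3.3). P-values, two-sided, were adjusted by Benjamini-Hochberg over both designs. An F test compared the null effect between stages. The fit was tested on simulated data. Tables and figures were made with Python.

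The members and lists were chosen with earlier results of these data known. Every member is accounted for. Values in every sample are given for up to 12 member probe sets with the largest stage-average null difference among those called at a stage, 8 for wild type E12.5 over adult, 4 of the F test, and all probe sets of genes called both ways. Alternatives were other scalings, floors, filters, replicate and scan day blocks, 1 probe set per gene, plain probe sets, and leaving out each sample. The actin covariate and the average of the 2 early stages were added after seeing the data. Same-numbered replicates did not deviate together on both designs (correlations of -0.289 to 0.222 on 430A and -0.147 to 0.0918 on 430B).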

Additional observations from a re-analysis of the deposited data

Results flagged for a closer look

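For 7 member probe sets the difference between null and wild type kidneys itself differed between the 3 stages, by limma's F test. The adjusted p was 0.0081 for Hoxa3 1452421_at, with null over wild type differences of 1.79, 2.14 and -0.13 for E12.5, E13.5 and E16.5. It was 0.0111 for Hoxa5 1448926_at (2.49, 2.89 and 0.23) and 0.0185 for Hoxc4 (1.71, 1.78 and -0.35). These 3 were high in null kidneys at the early stages and not at E16.5. Hoxc8 had an adjusted p of 0.0152 (1.10, 0.69 and -1.07). Hoxb5 had 0.0206 (-0.43, 0.52 and -1.26), and Hoxb6 0.0255 (-0.68, 1.52 and 0.29). Hoxc5 1439885_at, with 0.0441, had its largest difference at E16.5 (-0.33, 0.97 and 1.89).

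Some probe sets of the clusters lie outside the rule because their annotation names 2 genes or an antisense RNA, and were higher in null kidneys at an early stage. The antisense RNA Hoxd3os1 (1460056_at) had log2 differences of 4.19 at E12.5 and 4.74 at E13.5. It had 16196 and 11049 in null kidneys, against 710.3 and 351 in wild type kidneys at E13.5, and at E16.5 it was lower (-3.59, adjusted p = 0.00179), with 1153 and 5127 in null kidneys, against 25329 and 33784 in wild type kidneys. The other tested Hoxd3os1 probe set, 1430263_at, did not show the early difference (-0.89 and 0.20, adjusted p = 0.218 and 0.793) and was lower at E16.5 (-2.24, adjusted p = 0.00331). Probe set 1421537_at, shared by Hoxd4 and Hoxd3, was higher by 3.52 at E13.5, with 1458 and 1572 in null kidneys, against 202 and 64.4 in wild type kidneys. Probe set 1450209_at of the same genes was higher by 1.50 at E12.5 and 2.14 at E13.5, with 951 and 1230.5 in null kidneys, against 253 and 239 in wild type kidneys at E13.5. At E16.5 it was lower (-2.11, adjusted p = 0.000983), with 91.3 and 140.1 in null kidneys, against 475 and 504 in wild type kidneys.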

How the results depend on the processing

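Of 102 called results of single members, median centring kept 75 calls, quantile normalization 85, no filter 92, the 40th percentile floor 95, an offset in place of the floor 101, and scan day as a random block 99, and none of these turned a direction. The actin ratio as a covariate kept 61 and turned 1, the stage average of Hoxa9 1421579_at (-0.20). Counts of members called that moved by over 1.5 times were, for null over wild type at E12.5 (11), 6 under quantile normalization, 7 with the filter at the 70th percentile, 7 with 1 probe set per gene and 1 with the actin covariate. With that covariate E13.5 (11) gave 2 and the stage average (15) gave 3. Median centring gave 3 for wild type E16.5 over E13.5 (6) and 7 for null E16.5 over E13.5 (12), and no filter gave 4 for the F test (7). The average of the 2 early stages alone called 16. The cause of these moves was not tested, except that a stricter filter or 1 probe set per gene leaves fewer members to call.

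Leaving out 1 sample at a time gave 2 to 12 calls for null over wild type at E12.5, 7 to 12 at E13.5, 5 to 11 at E16.5 and 15 to 17 in the stage average. For wild type over adult it gave 10 to 15 at E12.5, 9 to 11 at E13.5 and 7 to 13 at E16.5. It gave 1 to 6 for wild type E16.5 over E13.5, 1 to 14 for null E16.5 over E13.5 and 2 to 8 for the F test. With the replicate number as a block, in samples that share only a number, the counts were 11, 10, 9 and 15 for the null comparisons, 13, 11 and 13 against adult, 5 and 12 for the stage steps and 6 for the F test, and 99 of 102 single calls were kept. With 2 arrays per group, small differences and those near the floor could not be resolved.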

Other observations

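Other probe sets of the Hox clusters that name an antisense RNA or 2 genes also differed. Hoxa11os (1452400_a_at), the antisense RNA of the targeted Hoxa11, was lower in null kidneys at all 3 stages (-2.29 ± 0.29, -2.36 ± 0.29 and -1.76 ± 0.29). It had 388 and 479.5 in null kidneys, against 2238 and 1982 in wild type kidneys at E12.5. Whether reads of gene and antisense RNA can be told apart depends on the strand of the probes, which is not given in the sources used here.

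Probe set 1452493_s_at, shared by Hoxb8 and Hoxb7, did not differ at the early stages (0.10 ± 0.40 and -0.35 ± 0.40) and was lower in null kidneys at E16.5 (-2.47 ± 0.40, adjusted p = 0.000583). It then had 340.0 and 269.9 in null kidneys, against 1788 and 1566 in wild type kidneys. Hoxb5os (1447886_at) was lower in null kidneys at E12.5 (-2.27 ± 0.67, adjusted p = 0.0314) and E13.5 (-2.00 ± 0.67, adjusted p = 0.0453). Its samples were far apart within groups, with 6804 and 27598 in null kidneys, against 84306 and 35430.2 in wild type kidneys at E13.5.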
